A study of Mus musculus with 19 samples.

Results

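Fendrr is a long non-coding RNA transcribed divergently from Foxf1, the gene of a forkhead transcription factor of the lateral and splanchnic mesoderm. In mouse embryos Fendrr is made in the nascent lateral mesoderm, its loss impairs the heart and the body wall, and the RNA has been reported to bind Polycomb and Trithorax group complexes. Lateral mesoderm arises from the primitive streak under BMP signalling and gives rise to heart, smooth muscle, body wall and blood vessels. The experiment described here compared 2 libraries of shFendrr cells with 2 libraries of shCtrl cells, 4 of the 19 libraries of the series. All 4 came from CJ9 mouse embryonic stem cells of strain 129S4/SvJae, 5 days after withdrawal of LIF, the cytokine that keeps these cells undifferentiated, in serum-containing medium. The shFendrr cells carry a short hairpin against Fendrr and the shCtrl cells a control hairpin. The design asked for genes whose expression differs after a divergent lncRNA is knocked down. The labels do not say whether libraries 1 and 2 of a group are separate cultures or separate hairpins. The p-values below therefore measure only a spread between libraries, estimated over the groups of all 19 libraries and not from these 4 alone.

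Levels are given in FPKM (fragments per kilobase of transcript, scaled by the authors to each library's mapped fragments). Of 38424 entries of the table, 14942 reached 1 FPKM in at least 2 of the 19 libraries and were tested. Changes are differences of log2(FPKM + 1), shFendrr minus shCtrl, with their standard error (SE). The added 1 shrinks the change of genes with low values. An entry is said to be called, and to have risen or fallen, where limma's moderated test with Benjamini-Hochberg adjustment over all 14942 entries gave an adjusted p under 0.05.

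The 4 libraries were differentiating cultures. Pou5f1, which encodes the pluripotency factor Oct4, was at 349 and 283 FPKM in shFendrr, against 287 and 271 FPKM in shCtrl. The primitive streak factor T (Brachyury) was at 195 and 88.1 FPKM in shFendrr, against 114 and 128 FPKM in shCtrl, so both markers were present in every library. The library shFendrr 2 stood furthest from the others. Among 9343 entries that reach 5 FPKM, 408 differed at least 2-fold between shFendrr 1 and shFendrr 2, and 101 between shCtrl 1 and shCtrl 2. Against shCtrl 1 and shCtrl 2, shFendrr 1 differed at least 2-fold in 122 and 102 entries, and shFendrr 2 in 621 and 222. The step between low loci gave depths of 0.960 for shFendrr 1, 0.986 for shFendrr 2 and 0.917 for shCtrl 2 relative to shCtrl 1, but only 13.0 to 16.2% of the loci compared lay within 0.02 (log2) of that step. The labels give an index barcode for 3 of these 4 libraries and none for shCtrl 1, and whether the 4 were sequenced together was not given in the sources used here.

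Fendrr itself (chromosome 8, 123578782 to 123606932, mm9) was at 0.358 and 0.0768 FPKM in shFendrr, against 1.10 and 1.49 FPKM in shCtrl. Both shFendrr libraries lay below both controls, and the lowest value belonged to shFendrr 2. Of the 19 libraries only these 2 shCtrl libraries reached 1 FPKM, so Fendrr entered the test only through the group where it was high. The log2 change of -0.92 ± 0.16 did not pass (adjusted p = 0.0816 by limma), and it passed without shFendrr 1 (-1.09, adjusted p = 0.0261). Foxf1 (chromosome 8, 123608286 to 123612054, mm9), whose entry begins 1354 bp from the end of the Fendrr entry, fell. It was at 3.86 and 1.77 FPKM in shFendrr, against 10.1 and 10.9 FPKM in shCtrl (log2 change -1.65 ± 0.24 SE, adjusted p = 0.0339 by limma). The Foxf1 call was lost without shFendrr 2 (adjusted p = 0.145), without shCtrl 1 (0.181) and without shCtrl 2 (0.153), with a log2 change between -2.05 and -1.24 over the libraries left out. Foxf1 was the 1 called entry among 10 tested genes around Fendrr, against 0.147% of all entries tested. The neighbours given next overlapped between the groups. Mthfsd, on the far side of Foxf1, was at 15.7 and 22.0 FPKM in shFendrr, against 19.2 and 18.997 FPKM in shCtrl. Gse1 was at 16.7 and 33.3 FPKM in shFendrr, against 14.5 and 23.9 FPKM in shCtrl, Emc8 at 22.1 and 24.3 FPKM against 21.4 and 22.5 FPKM, and Fbxo31 at 8.87 and 7.45 FPKM against 9.74 and 8.18 FPKM.

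The start regions of the target and of 3 entries that fell, Tbx20, Rubie and Smad6, are shown from the RefSeq promoter table (GRCm38.p6, 250 bases before to 50 after the start). Fendrr is the depleted RNA, Tbx20 and Rubie are the falls with the smallest adjusted p, and Smad6, an inhibitor of BMP signalling, was chosen after its motif match was seen. They lie at chr8:121083061-121083360, chr9:24774254-24774553, chr14:46575802-46576101 and chr9:64022010-64022309, all on the minus strand. Capitals mark matches, on either strand, to the forkhead core TGTTTA, the E-box CATCTG and the palindromic Smad motif GTCTAGAC.
Fendrr: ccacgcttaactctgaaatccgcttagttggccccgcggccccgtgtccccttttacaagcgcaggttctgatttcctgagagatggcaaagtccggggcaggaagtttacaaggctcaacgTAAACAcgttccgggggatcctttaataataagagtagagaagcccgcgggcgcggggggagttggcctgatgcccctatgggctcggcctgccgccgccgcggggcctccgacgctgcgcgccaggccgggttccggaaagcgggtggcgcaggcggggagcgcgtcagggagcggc
Tbx20: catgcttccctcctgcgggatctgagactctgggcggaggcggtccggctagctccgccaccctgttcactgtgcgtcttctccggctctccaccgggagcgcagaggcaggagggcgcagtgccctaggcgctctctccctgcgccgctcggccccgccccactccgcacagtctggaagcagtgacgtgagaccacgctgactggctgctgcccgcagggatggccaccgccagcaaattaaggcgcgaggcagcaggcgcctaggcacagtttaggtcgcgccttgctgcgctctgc
Rubie: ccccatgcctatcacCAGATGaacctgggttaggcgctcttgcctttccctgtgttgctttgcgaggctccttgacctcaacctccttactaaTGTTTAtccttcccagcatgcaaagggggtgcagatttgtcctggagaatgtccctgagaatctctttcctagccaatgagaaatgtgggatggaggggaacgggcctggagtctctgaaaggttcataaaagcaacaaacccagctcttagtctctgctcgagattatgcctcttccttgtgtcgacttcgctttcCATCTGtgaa
Smad6: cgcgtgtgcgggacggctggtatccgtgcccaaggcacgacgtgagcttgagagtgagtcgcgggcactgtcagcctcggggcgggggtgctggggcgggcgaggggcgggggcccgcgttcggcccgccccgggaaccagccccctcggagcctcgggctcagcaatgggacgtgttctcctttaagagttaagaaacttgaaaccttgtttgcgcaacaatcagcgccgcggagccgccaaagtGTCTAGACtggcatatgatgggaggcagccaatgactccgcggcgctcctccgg
Among 27025 promoters of the same length, 13.4% hold TGTTTA, 17.2% CATCTG and 0.211% GTCTAGAC. A T-box motif, AGGTGTGA (1.27% of promoters), and a GATA motif, AGATAA (11.4%), had no match in these 4 windows, and Tbx20 had no match to any of the 5 motifs. The table matched 8 of the 22 called entries described next, and in the 5 windows not shown AGATAA had a match in Fgf3 and CATCTG in Fbln2 and Capn6, while Bmp5 and Rab3il1 had none. The Fendrr window has 64.7% GC and 31 CpG, against medians of 52.7% and 7 over all promoters. A match describes the letters of the window and no binding was measured.

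In all, 22 of the 14942 entries were called (0.147%), 14 of them lower (0.0937%) and 8 higher (0.0535%) in shFendrr than in shCtrl. Of the 14 that fell, 5 are in the lateral and splanchnic mesoderm list, the transcription factor genes Foxf1, Tbx20, Prdm6 and Hand1 and the ligand gene Bmp5, while the largest falls by size were those of the short entries Scarna13 and AK196959. The 8 that rose include the neurofilament genes Nefl and Nefm. At an unadjusted p under 0.05 there were 1051 entries (7.03%), 637 lower (4.26%) and 414 higher (2.77%). The count of calls depended on how the spread was estimated, since a fit to the 12 LIF-withdrawal libraries or to the 4 day-5 libraries alone called 0 entries by limma (925 and 532 at an unadjusted p under 0.05). It depended on 1 library as well, with 2 calls without shFendrr 2, 231 without shFendrr 1, 4 without shCtrl 1 and 9 without shCtrl 2. Tbx20 and Rubie kept their call whichever of the 4 libraries was left out. Of the 14 entries that fell, 13 had the larger fall in shFendrr 2, and of the 8 that rose, 5 had the larger rise there.

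**Figure D1:**
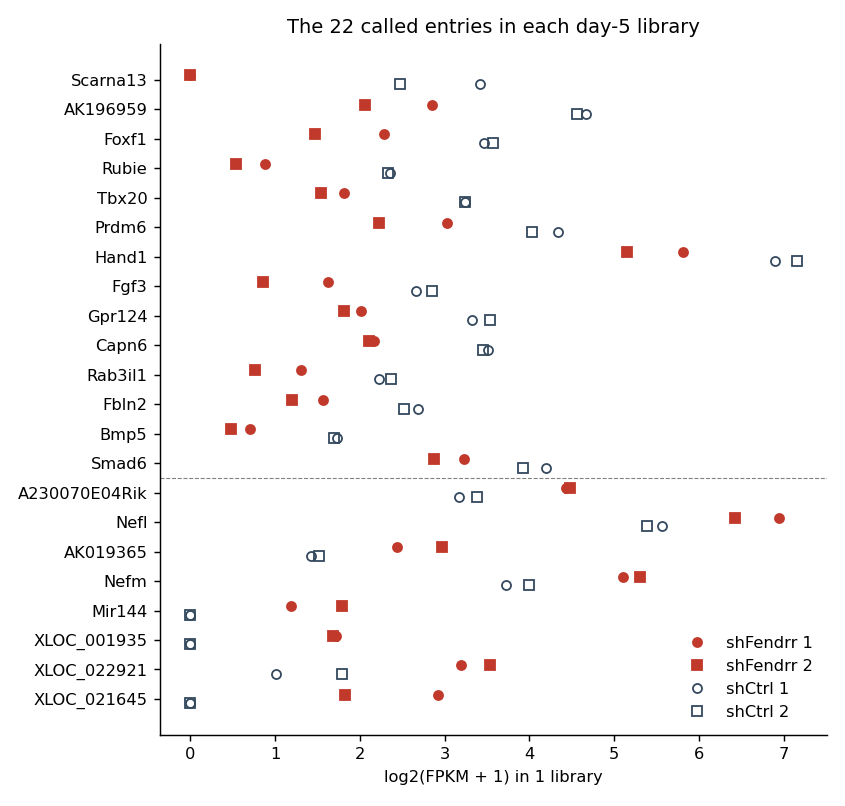
Level of each of the 22 called entries in the 4 day-5 libraries, as log2(FPKM + 1); filled red symbols are shFendrr, open symbols shCtrl, circles library 1 and squares library 2, with entries that fell above the dashed line and entries that rose below it. In every entry the 2 shFendrr symbols lie on one side of the 2 shCtrl symbols, and Tbx20 and Rubie have nearly coinciding controls at 8.48 and 8.42 FPKM and at 4.10 and 4.05 FPKM.

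**Figure D2:**
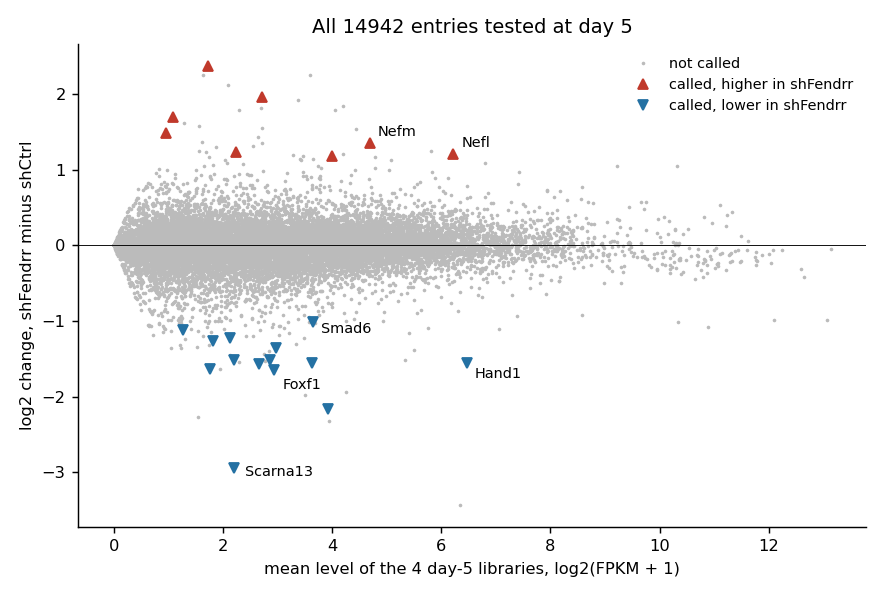
Log2 change, shFendrr minus shCtrl, of all 14942 entries tested against their mean level in the 4 libraries, as log2(FPKM + 1); triangles mark the 22 called entries. The 14 that fell reach a mean level as high as that of Hand1, and the most abundant of the 8 that rose is Nefl.

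Of the transcription factors that fell, Tbx20, a T-box factor of the heart and lateral mesoderm (chromosome 9, 24544692 to 24578747, mm9), had the smallest adjusted p, shared with Rubie. Tbx20 was at 2.51 and 1.90 FPKM in shFendrr, against 8.48 and 8.42 FPKM in shCtrl (log2 change -1.57 ± 0.15 SE, adjusted p = 0.00291 by limma). The groups stood far apart relative to the gap within each, and its adjusted p stayed at or below 0.0409 with any 1 library left out. Hand1, a basic helix-loop-helix factor of lateral mesoderm, heart and trophoblast (chromosome 11, 57642215 to 57645649, mm9), was the most abundant entry that fell, at 55.0 and 34.5 FPKM in shFendrr against 118 and 142 FPKM in shCtrl (-1.55 ± 0.25, adjusted p = 0.0489 by limma). Prdm6, a PR-domain factor of smooth muscle (chromosome 18, 53624200 to 53735511, mm9), was at 7.15 and 3.69 FPKM in shFendrr, against 19.1 and 15.4 FPKM in shCtrl (-1.55 ± 0.24, adjusted p = 0.0383 by limma). The calls of Hand1 and Prdm6 held without shFendrr 1 and were lost without any of the other 3 libraries, with adjusted p up to 0.331 and 0.324.

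Signalling genes made up a further group of the falls. Bmp5, a BMP ligand (chromosome 9, 75623172 to 75746824, mm9), was low in all libraries, at 0.633 and 0.395 FPKM in shFendrr against 2.32 and 2.23 FPKM in shCtrl (log2 change -1.12 ± 0.15 SE, adjusted p = 0.0169 by limma). Outside these 2 controls only 1 library of the series reached 1 FPKM, so Bmp5 would not pass the filter without them. Smad6, an inhibitory Smad that dampens BMP signalling and is induced by it (chromosome 9, 63800883 to 63869866, mm9), was at 8.34 and 6.32 FPKM in shFendrr, against 17.3 and 14.2 FPKM in shCtrl (-1.01 ± 0.15, adjusted p = 0.0371 by limma). Fgf3, an FGF ligand (chromosome 7, 152024517 to 152029253, mm9), was at 2.08 and 0.811 FPKM in shFendrr, against 5.33 and 6.23 FPKM in shCtrl (-1.52 ± 0.24, adjusted p = 0.0415 by limma). A ligand and an inhibitor of the BMP pathway thus fell together. Gpr124, an adhesion G protein-coupled receptor needed for vessel growth in the brain (chromosome 8, 28196313 to 28233908, mm9), was at 3.03 and 2.51 FPKM in shFendrr, against 8.97 and 10.6 FPKM in shCtrl (-1.52 ± 0.24, adjusted p = 0.0434 by limma). These 4 calls were lost without shFendrr 2, shCtrl 1 or shCtrl 2, with adjusted p up to 0.181, 0.306, 0.212 and 0.293 for Bmp5, Smad6, Fgf3 and Gpr124. The Bmp5 entry overlaps the entry Gm16662, which stayed at or below 0.179 FPKM in all 4 libraries, and use of strand in the counting was not given in the sources used here.

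Rubie is a non-coding RNA upstream of Bmp4 (chromosome 14, 47188006 to 47195526, mm9), whose entry lies 177732 bp from that of Bmp4. It was at 0.836 and 0.456 FPKM in shFendrr, against 4.10 and 4.05 FPKM in shCtrl (log2 change -1.63 ± 0.15 SE, adjusted p = 0.00291 by limma). Outside these 2 controls only 1 library of the series reached 1 FPKM, so Rubie would not pass the filter without them. Rubie remained called with any 1 library left out, with adjusted p at or below 0.0409. Bmp4, a ligand that induces lateral mesoderm, was at 24.96 and 27.6 FPKM in shFendrr, against 42.2 and 38.96 FPKM in shCtrl. The Bmp4 groups did not overlap, but its log2 change of -0.61 ± 0.22 did not pass (adjusted p = 0.625 by limma). The Rubie entry overlaps that of E130120K24Rik, which was listed at 0 in 3 of the 4 libraries and at 0.677 FPKM in shCtrl 2.

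The remaining named entries that fell encode proteins of the matrix and of the cell interior. Capn6, a calpain family member without protease activity (chromosome X, 140236780 to 140261955, mm9), was at 3.48 and 3.30 FPKM in shFendrr, against 10.4 and 9.99 FPKM in shCtrl (log2 change -1.35 ± 0.17 SE, adjusted p = 0.0149 by limma). Fbln2, the extracellular matrix protein fibulin-2 (chromosome 6, 91162758 to 91222534, mm9), was at 1.95 and 1.29 FPKM in shFendrr, against 5.43 and 4.73 FPKM in shCtrl (-1.22 ± 0.16, adjusted p = 0.0184). Rab3il1, an exchange factor for Rab GTPases (chromosome 19, 10092718 to 10110076, mm9), was at 1.47 and 0.692 FPKM in shFendrr, against 3.68 and 4.15 FPKM in shCtrl (-1.26 ± 0.19, adjusted p = 0.0371). In each of these 3 genes all shFendrr values lay below all shCtrl values, and each call was lost without shFendrr 2, shCtrl 1 or shCtrl 2, with adjusted p up to 0.181, 0.181 and 0.212 for Capn6, Fbln2 and Rab3il1. AK196959, an entry of 353 bases within Apcdd1, was at 6.22 and 3.16 FPKM in shFendrr, against 24.4 and 22.7 FPKM in shCtrl (-2.16 ± 0.31, adjusted p = 0.0334 by limma), a call lost without the same 3 libraries (adjusted p up to 0.220). Apcdd1, which encodes a membrane inhibitor of Wnt signalling, was at 5.15 and 4.89 FPKM in shFendrr, against 10.8 and 11.4 FPKM in shCtrl (-1.01 ± 0.18, adjusted p = 0.0906). Scarna13, a small Cajal body RNA of 273 bases inside the host gene Snhg10, was listed at 0 in both shFendrr libraries and at 9.69 and 4.56 FPKM in shCtrl (adjusted p = 0.0138 by limma, and 0.106 without shFendrr 2 and 0.0920 without shCtrl 1). Snhg10 overlapped between the groups, at 1.26 and 2.03 FPKM in shFendrr against 2.14 and 1.47 FPKM in shCtrl. One fragment weighs more in FPKM for entries this short.

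The neurofilament genes Nefl and Nefm rose. Nefl, the light neurofilament subunit (chromosome 14, 68701941 to 68705794, mm9), was at 122 and 85.1 FPKM in shFendrr, against 46.5 and 40.9 FPKM in shCtrl (log2 change 1.20 ± 0.19 SE, adjusted p = 0.0415 by limma). Nefm, the medium subunit (chromosome 14, 68737602 to 68743061, mm9), whose entry lies 31808 bp from Nefl, was at 33.4 and 38.6 FPKM in shFendrr, against 12.2 and 14.9 FPKM in shCtrl (1.35 ± 0.18, adjusted p = 0.0169 by limma). A230070E04Rik, an entry that overlaps Nefm, was at 20.6 and 21.4 FPKM in shFendrr, against 7.99 and 9.42 FPKM in shCtrl (1.18 ± 0.15, adjusted p = 0.0149). Reads of these overlapping entries may be shared. All 3 calls held without shFendrr 1 and were lost without any of the other 3 libraries, with adjusted p up to 0.181. Nefh, the heavy subunit, was at 1.33 and 2.52 FPKM in shFendrr, against 0.665 and 1.22 FPKM in shCtrl, and its adjusted p was 0.732.

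The other 5 entries that rose were short, unnamed or near the floor. XLOC_022921, an assembled locus 103281 bp from Hand2, was at 8.15 and 10.6 FPKM in shFendrr, against 1.02 and 2.45 FPKM in shCtrl (log2 change 1.96 ± 0.24 SE, adjusted p = 0.0149 by limma, and 0.132 without shFendrr 2 and 0.0920 without shCtrl 1). Hand2 itself, a partner of Hand1 in heart and limb, lay on the other side of its controls, at 2.39 and 0.803 FPKM in shFendrr against 3.31 and 3.50 FPKM in shCtrl, without passing (adjusted p = 0.464). AK019365 was at 4.41 and 6.81 FPKM in shFendrr, against 1.69 and 1.85 FPKM in shCtrl (1.23 ± 0.18, adjusted p = 0.0315). Mir144, an entry of 237 bases at an erythroid microRNA, was at 1.27 and 2.45 FPKM in shFendrr and listed at 0 in both shCtrl libraries (adjusted p = 0.0149 by limma). It was listed at 0 in every library outside shFendrr, so it passed the filter only through the group where it was high. XLOC_001935, at 2.28 and 2.20 FPKM in shFendrr, and XLOC_021645, at 6.58 and 2.54 FPKM, were also listed at 0 in both shCtrl libraries (adjusted p = 0.0474 and 0.0415). The calls of AK019365, Mir144, XLOC_001935 and XLOC_021645 were lost without shFendrr 2, shCtrl 1 or shCtrl 2, with adjusted p up to 0.195, 0.168, 0.306 and 0.285.

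The lateral and splanchnic mesoderm list held 30 tested genes, of which 25 were lower and 5 higher in shFendrr. The calls were 5, all lower, namely Foxf1, Tbx20, Prdm6, Hand1 and Bmp5, against 0.0937% of all entries called lower. In 19 of the 30 both shFendrr values lay below both shCtrl values, against 15.7% of all entries tested, and in 17 the unadjusted p was under 0.05 with a lower value, against 4.26% of all entries. The median log2 change of the list was -0.58, against 0.00 over all entries, and it was -0.53 for shFendrr 1 and -0.79 for shFendrr 2 when each was set against the mean of the controls. The 30 genes summed to 432 and 333 FPKM in shFendrr, against 638 and 608 FPKM in shCtrl. A further 8 genes of the list in the table did not pass the filter on low values. This list and those below were chosen with earlier results of these data known. Their counts and medians describe these data and do not test them. In bulk RNA, fewer cells of a type and less RNA per cell cannot be told apart.

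Within this list the uncalled genes ranged widely. Cfc1, which encodes the Nodal co-receptor Cryptic, had the largest fall by size, at 7.37 and 1.52 FPKM in shFendrr against 35.3 and 13.5 FPKM in shCtrl (log2 change -2.32 ± 0.54 SE, adjusted p = 0.283 by limma). Its controls differed from each other by more than 2-fold. Tbx2, a T-box factor of the heart, was at 1.08 and 1.03 FPKM in shFendrr, against 4.13 and 2.69 FPKM in shCtrl (-1.08 ± 0.19, adjusted p = 0.0848). Kdr, the VEGF receptor of vascular progenitors, was at 7.24 and 2.71 FPKM in shFendrr, against 13.4 and 9.52 FPKM in shCtrl (-1.15 ± 0.33, adjusted p = 0.480). For Kdr, as for Gata6, Pdgfra and Gata4 in the plot of the list, shFendrr 2 lay much further from the controls than shFendrr 1. The 5 members with a positive log2 change lay at or below 0.47, the value of Nkx2-5.

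**Figure D3:**
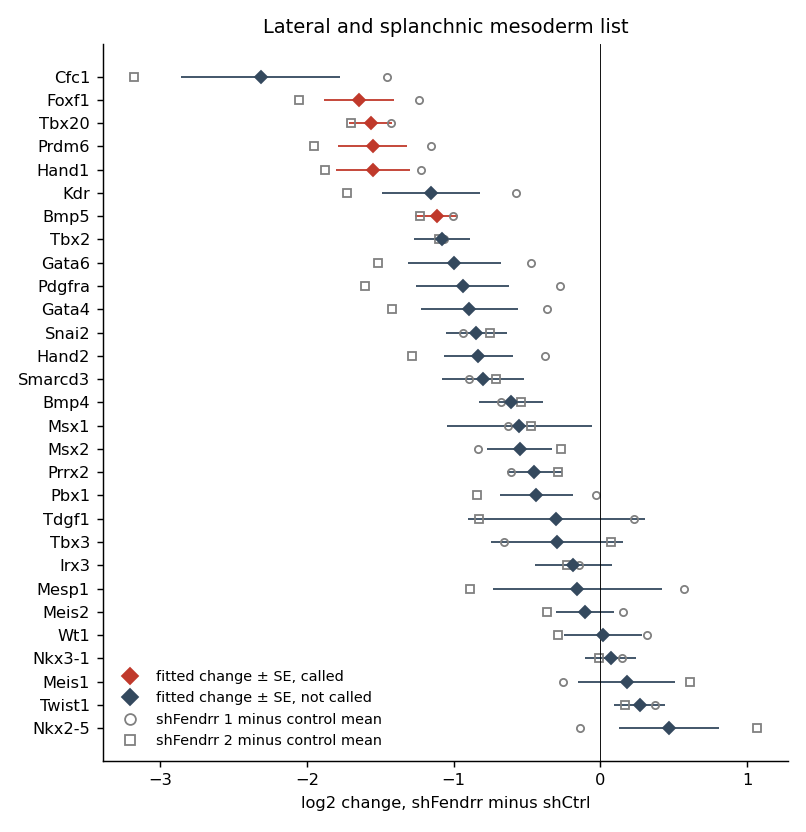
Log2 change, shFendrr minus shCtrl, of 29 of the 30 tested genes of the lateral and splanchnic mesoderm list; diamonds with bars are the fitted change ± SE (red where called), and open circles and squares are shFendrr 1 and shFendrr 2 minus the control mean. The 5 called genes lie between -1.65 and -1.12, and 24 of the 29 genes lie left of 0.

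Of 9 genes that have been studied in Fendrr-deficient mouse embryos, 8 were lower and 1 higher in shFendrr, with a median log2 change of -0.83. Foxf1 and Hand1 fell, against 0.0937% of all entries, and 6 of the 9 lay lower without overlap of the groups, against 15.7% of all entries. All 9 are also in the lateral mesoderm list, so this is not a separate observation. Gata6, a zinc finger factor of heart and endoderm, was at 5.29 and 2.05 FPKM in shFendrr, against 8.15 and 7.34 FPKM in shCtrl (adjusted p = 0.552 by limma). Gata4, its relative in the heart, was at 17.1 and 7.73 FPKM in shFendrr, against 25.5 and 19.6 FPKM in shCtrl (adjusted p = 0.636). Irx3 lay at 1.07 and 0.955 FPKM in shFendrr, against 1.51 and 1.08 FPKM in shCtrl. Tbx3, a T-box factor, overlapped between the groups, at 20.8 and 35.2 FPKM in shFendrr, against 29.3 and 38.2 FPKM in shCtrl. Nkx2-5, a cardiac homeobox factor, was the gene with the positive change, at 0.396 and 2.23 FPKM in shFendrr against 0.221 and 0.936 FPKM in shCtrl (adjusted p = 0.812).

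In the BMP pathway list, Bmp5 and Smad6 fell among 23 tested genes, 16 of which were lower and 7 higher in shFendrr. Of all entries, 0.0937% were called lower. The median log2 change was -0.27, and 12 genes lay lower without overlap of the groups, against 15.7% of all entries. The ligand Bmp7 was at 3.16 and 1.77 FPKM in shFendrr, against 5.31 and 4.20 FPKM in shCtrl (adjusted p = 0.635 by limma), and the ligand Bmp2 at 2.75 and 3.09 FPKM in shFendrr, against 4.89 and 4.04 FPKM in shCtrl (adjusted p = 0.692). For both ligands the shFendrr values lay below both controls. The target genes Id1 and Id2 overlapped between the groups. Id1, a direct BMP target, was at 71.5 and 91.8 FPKM in shFendrr, against 88.5 and 73.4 FPKM in shCtrl, and Id2 at 38.8 and 70.8 FPKM in shFendrr, against 33.1 and 39.8 FPKM in shCtrl. Fst, the secreted antagonist follistatin, was at 18.6 and 8.72 FPKM in shFendrr, against 6.53 and 8.58 FPKM in shCtrl (adjusted p = 0.739).

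Among the FGF pathway genes, Fgf3 fell and the other 22 were not called, with 11 of 23 higher and 12 lower. Of all entries, 0.0937% were called lower. Fgf8, a ligand of the primitive streak, was at 115 and 52.3 FPKM in shFendrr, against 161 and 97.2 FPKM in shCtrl. Fgf15 was at 4.31 and 1.94 FPKM in shFendrr, against 6.09 and 9.29 FPKM in shCtrl, and Fgf13 at 4.73 and 8.18 FPKM in shFendrr, against 2.64 and 4.04 FPKM in shCtrl. No adjusted p of these 3 was under 0.557. In the Hedgehog list, 7 of 10 genes were lower and 0 were called by limma. At an unadjusted p under 0.05, 3 were lower, against 4.26% of all entries. Ptch1, receptor and target of the pathway, was at 9.02 and 3.63 FPKM in shFendrr, against 12.9 and 11.8 FPKM in shCtrl (adjusted p = 0.635), and Gas1, a co-receptor, at 8.62 and 3.53 FPKM in shFendrr, against 10.7 and 9.13 FPKM in shCtrl (adjusted p = 0.681).

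Blood and endothelial genes gave 1 call, Gpr124, among 19 tested, of which 14 were lower and 5 higher. Of all entries, 0.0937% were called lower. The list's sum was 64.04 and 57.1 FPKM in shFendrr, against 84.9 and 81.2 FPKM in shCtrl. Pecam1, an endothelial adhesion molecule, was at 2.56 and 2.16 FPKM in shFendrr, against 4.26 and 3.61 FPKM in shCtrl (adjusted p = 0.851 by limma). Egfl7, a secreted endothelial factor, was at 11.1 and 6.47 FPKM in shFendrr, against 15.2 and 12.6 FPKM in shCtrl (adjusted p = 0.552), while Eng was at 7.27 and 12.6 FPKM in shFendrr, against 6.97 and 4.52 FPKM in shCtrl (adjusted p = 0.725). In the trophoblast list, which also holds Hand1, 10 of 18 genes were lower and Hand1 was the 1 called, against 0.0937% of all entries. Plac1 was at 1.57 and 1.42 FPKM in shFendrr, against 2.86 and 6.39 FPKM in shCtrl (adjusted p = 0.402).

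Contractile genes were divided in direction. Of 24 tested, 12 were higher and 12 lower, and 0 were called by limma. At an unadjusted p under 0.05, 4 were higher and 4 lower, against 2.77% and 4.26% of all entries. Without overlap, 7 lay higher and 9 lower, against 14.4% and 15.7% of all entries. The 7 were Cnn1, Cnn2, Tagln, Myl9, Tpm1, Srf and Actc1. The 9 were Myl3, Myl4, Myl7, Myh7, Tnnt1, Tnnt2, Tnni1, Tnnc1 and Csrp2. Cnn1, the actin-binding protein calponin, was at 26.0 and 36.1 FPKM in shFendrr, against 7.47 and 13.0 FPKM in shCtrl (log2 change 1.54 ± 0.35 SE, adjusted p = 0.272 by limma). Actc1, cardiac actin, was at 8.83 and 7.45 FPKM in shFendrr, against 2.15 and 2.59 FPKM in shCtrl (1.44 ± 0.40, adjusted p = 0.451). Myl9, a light chain of non-muscle and smooth muscle myosin, was at 33.3 and 57.0 FPKM in shFendrr, against 15.2 and 24.8 FPKM in shCtrl (adjusted p = 0.450), and Tagln at 305 and 682 FPKM in shFendrr, against 242 and 291 FPKM in shCtrl (adjusted p = 0.753). The smooth muscle actin Acta2 overlapped between the groups, at 25.01 and 152 FPKM in shFendrr, against 21.6 and 66.2 FPKM in shCtrl, and the LIM protein gene Csrp2 was lower, at 57.5 and 69.3 FPKM in shFendrr, against 102 and 92.0 FPKM in shCtrl. Of the sarcomere genes, Actc1 lay above both controls. Tnni3 overlapped between the groups, at 7.71 and 2.89 FPKM in shFendrr, against 8.26 and 7.36 FPKM in shCtrl. The other troponin genes tested and the light chains Myl3, Myl4 and Myl7 lay below both controls. Tnnc1 was at 6.53 and 12.2 FPKM in shFendrr, against 14.4 and 12.9 FPKM in shCtrl. Myl3 and Myh7 stayed at or below 0.401 FPKM in all 4 libraries. Tnnt2, cardiac troponin T, was at 0.666 and 1.16 FPKM in shFendrr, against 2.21 and 1.82 FPKM in shCtrl (adjusted p = 0.675), and Myl7, the atrial light chain, at 5.03 and 2.26 FPKM in shFendrr, against 6.48 and 6.39 FPKM in shCtrl (adjusted p = 0.715).

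In the neuron list, 20 of 26 tested genes were higher in shFendrr, Nefl and Nefm were the 2 called, and the median log2 change was 0.08. Of all entries, 0.0535% were called higher. Without overlap of the groups, 10 lay higher and 2 lower, against 14.4% and 15.7% of all entries. At an unadjusted p under 0.05, 6 were higher and 1 lower, against 2.77% and 4.26% of all entries. The list summed to 502 and 477 FPKM in shFendrr, against 345 and 387 FPKM in shCtrl. Stmn2, a stathmin of growing neurites, overlapped between the groups, at 165 and 94.4 FPKM in shFendrr against 129 and 128 FPKM in shCtrl. Defining neuronal markers differed in level. Elavl3 was at or below 0.509 FPKM and Map2 at or below 1.56 FPKM in all 4 libraries, whereas Uchl1 was at 28.99 and 50.6 FPKM in shFendrr, against 20.9 and 30.4 FPKM in shCtrl, and Gap43 at 28.5 and 45.4 FPKM in shFendrr, against 21.1 and 41.4 FPKM in shCtrl, both with overlapping groups. Tubb3, a neuronal tubulin, was at 7.04 and 9.14 FPKM in shFendrr, against 3.94 and 6.08 FPKM in shCtrl (adjusted p = 0.684 by limma). L1cam was at 5.75 and 3.80 FPKM in shFendrr, against 8.33 and 7.47 FPKM in shCtrl, and Stmn4 at 0.511 and 13.8 FPKM in shFendrr, against 0.570 and 2.82 FPKM in shCtrl. In the neural progenitor list, 13 of 26 genes were higher and 12 lower, and 0 were called by limma (1 at an unadjusted p under 0.05). That gene was Nes, the intermediate filament nestin, at 27.6 and 47.2 FPKM in shFendrr against 13.0 and 18.4 FPKM in shCtrl (log2 change 1.17 ± 0.33 SE, adjusted p = 0.451). The neural plate factors Sox1 and Pax6 stayed at or below 0.338 FPKM in all 4 libraries, and Sox2 was at 42.8 and 30.4 FPKM in shFendrr, against 50.4 and 34.9 FPKM in shCtrl.

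Earlier stages of differentiation gave 0 calls by limma. In the primitive streak and presomitic mesoderm list, 18 of 33 genes were higher and 15 lower (1 in each direction at an unadjusted p under 0.05), and in the core and naive pluripotency list, 11 of 26 were higher and 15 lower (1 in each direction). The apelin receptor Aplnr was at 7.02 and 2.22 FPKM in shFendrr, against 9.33 and 10.01 FPKM in shCtrl (adjusted p = 0.578). Lhx1, a homeobox factor of the streak, was at 12.5 and 3.48 FPKM in shFendrr, against 13.0 and 12.1 FPKM in shCtrl, so that shFendrr 2 alone was low. Dppa2, a chromatin factor of pluripotent cells, was at 13.5 and 20.02 FPKM in shFendrr, against 6.52 and 10.5 FPKM in shCtrl (adjusted p = 0.639), and Dppa3 at 6.64 and 3.20 FPKM in shFendrr, against 10.2 and 7.81 FPKM in shCtrl (adjusted p = 0.643). Subunits of the Polycomb and Trithorax complexes were close to even, with 18 of 34 higher, 16 lower, a median log2 change of 0.01 and 0 called by limma (2 higher at an unadjusted p under 0.05). Suz12 and Eed, core subunits of Polycomb repressive complex 2, were at 11.1 and 10.5 FPKM and at 26.4 and 26.8 FPKM in shFendrr, against 8.10 and 9.05 FPKM and 19.1 and 23.9 FPKM in shCtrl (adjusted p = 0.696 and 0.692).

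Lists of cell state held 0 called genes by limma. The interferon response and antigen presentation list had 26 of 29 genes lower, 15 of them without overlap and 11 at an unadjusted p under 0.05, against 15.7% and 4.26% of all entries, with a median log2 change of -0.42. The ubiquitin-like modifier Isg15 was at 16.2 and 8.002 FPKM in shFendrr, against 23.1 and 24.8 FPKM in shCtrl (adjusted p = 0.680), and Usp18, which removes it from proteins, at 3.33 and 1.82 FPKM in shFendrr, against 8.65 and 5.68 FPKM in shCtrl (adjusted p = 0.232). In the hypoxia and glycolysis list, 26 of 31 genes lay lower (median -0.26, 7 lower at an unadjusted p under 0.05), with Egln3, an oxygen sensor, at 5.15 and 2.53 FPKM in shFendrr against 8.19 and 7.18 FPKM in shCtrl (adjusted p = 0.352). Of all 14942 entries, 7437 were higher and 7432 lower, and 2.77% were higher at an unadjusted p under 0.05. p53 target genes were higher in 21 of 25 (4 at an unadjusted p under 0.05), but their median was -0.02 for shFendrr 1 and 0.66 for shFendrr 2. Immediate early genes were higher in 20 of 24 (5 at an unadjusted p under 0.05, against 2.77% of all entries), with medians of 0.02 for shFendrr 1 and 0.40 for shFendrr 2. The p53 target Sesn2 was at 27.6 and 38.4 FPKM in shFendrr, against 18.5 and 24.5 FPKM in shCtrl (adjusted p = 0.563), and Atf3, a stress-induced factor, at 15.7 and 17.8 FPKM in shFendrr, against 8.83 and 8.52 FPKM in shCtrl (adjusted p = 0.283). Of 43 genes of the integrated and endoplasmic reticulum stress response, 27 were higher (5 at an unadjusted p under 0.05, against 2.77% of all entries). The part of these differences in the falls and rises above was not tested. The other 14 lists, among them endoderm, neural crest, Wnt, Notch, Hox, imprinted and proliferation genes, held 0 called genes by limma, with medians between -0.16 and 0.16. Their medians lay between -0.19 and 0.30 for shFendrr 1 and between -0.30 and 0.67 for shFendrr 2, with the surface ectoderm and epithelium list at -0.15 for shFendrr 1 and 0.67 for shFendrr 2.

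**Figure D4:**
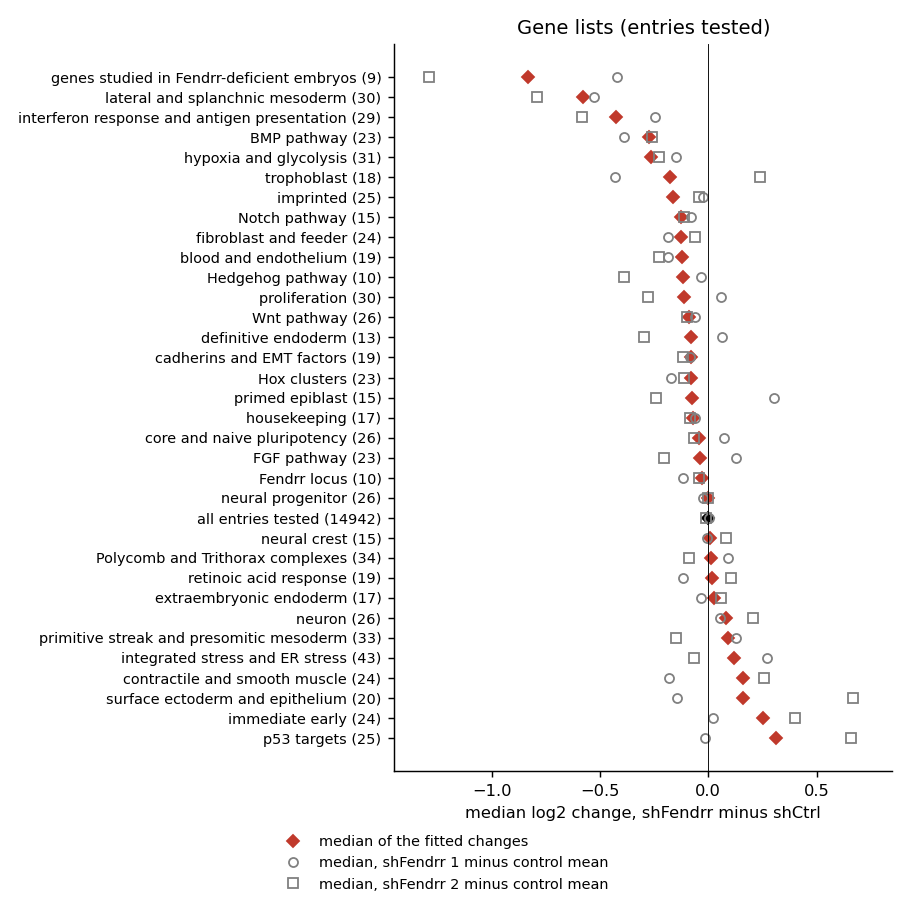
Median log2 change, shFendrr minus shCtrl, of the tested genes of each of 33 lists and of all 14942 entries (black diamond); red diamonds are medians of the fitted changes, and open circles and squares the medians for shFendrr 1 and shFendrr 2 against the control mean. The lateral mesoderm list lies at -0.53 in shFendrr 1 and -0.79 in shFendrr 2, whereas the p53 list lies at -0.02 and 0.66.

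Other abundant genes with separate groups did not pass. Besides those given above, the largest rises among named genes that reach 10 FPKM were those of Snhg3, Zfp961, Bok, Epha2, Mme and the mitochondrially encoded Cox2 and Cytb, with log2 changes between 0.97 and 1.56 and adjusted p of at least 0.224 by limma. Epha2, an ephrin receptor, was at 25.1 and 47.8 FPKM in shFendrr, against 13.3 and 20.4 FPKM in shCtrl. The largest falls besides Cfc1 and Kdr were those of Ifi27l2a, Stard8, Capn5, Nrp1, Gpc3, Igfbp4, Efna1 and Cxcr7, between -1.40 and -1.07. Stard8, a GTPase-activating protein, was at 5.01 and 4.57 FPKM in shFendrr, against 14.2 and 12.4 FPKM in shCtrl (adjusted p = 0.0848). Gpc3, the proteoglycan glypican-3, was at 104 and 65.5 FPKM in shFendrr, against 181 and 176 FPKM in shCtrl (adjusted p = 0.272), and Igfbp4, a binding protein of insulin-like growth factors, at 36.7 and 30.4 FPKM in shFendrr, against 67.7 and 76.8 FPKM in shCtrl (adjusted p = 0.208).

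The called genes were also followed in CJ9 controls of the series that share no library with the 4 described here, 1 control of the shEVX1 experiment at day 4 and 1 control of the shLhx1os experiment at day 6. With 1 library each there is no test, and the days come from separate experiments. Of the 14 entries that fell in shFendrr, 13 were higher in the day-6 than in the day-4 control, 11 of them at least 2-fold on the log2(FPKM + 1) scale, against 54.9% and 6.99% of all entries tested. Hand1 was at 13.7 FPKM at day 4, 118 and 142 FPKM at day 5 and 204 FPKM at day 6. Foxf1 was at 2.46 FPKM at day 4, 10.1 and 10.9 FPKM at day 5 and 11.5 FPKM at day 6, and Tbx20 at 1.84, then 8.48 and 8.42, then 15.0 FPKM. Bmp5 and Rubie reached 1 FPKM only in the day-5 controls and the day-6 control. The 14 entries were chosen as lower in shFendrr, so that all lay below both day-5 controls was fixed in advance. Only their place relative to the day-4 control was open. Over the 14 entries, shFendrr 1 lay between the day-4 control and the lower day-5 control in 10 and at or below the day-4 control in 4, AK196959, Fbln2, Fgf3 and Scarna13. The library shFendrr 2 lay between them in 8 and at or below the day-4 control in 6, which were the same 4 with Foxf1 and Prdm6. Nefl ran the other way over these days. It was at 308 FPKM at day 4, 46.5 and 40.9 FPKM at day 5 and 5.60 FPKM at day 6, and the uncalled Cnn1 at 49.3, then 7.47 and 13.0, then 2.55 FPKM. Of the 8 entries that rose in shFendrr, 4 were lower and 1 higher in the day-6 than in the day-4 control, against 44.1% of all entries lower and 54.9% higher. The 4 were Nefl, its neighbour Nefm, A230070E04Rik, which overlaps Nefm, and XLOC_022921. AK019365, Mir144 and XLOC_001935 were listed at 0 in both of these controls.

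**Figure D5:**
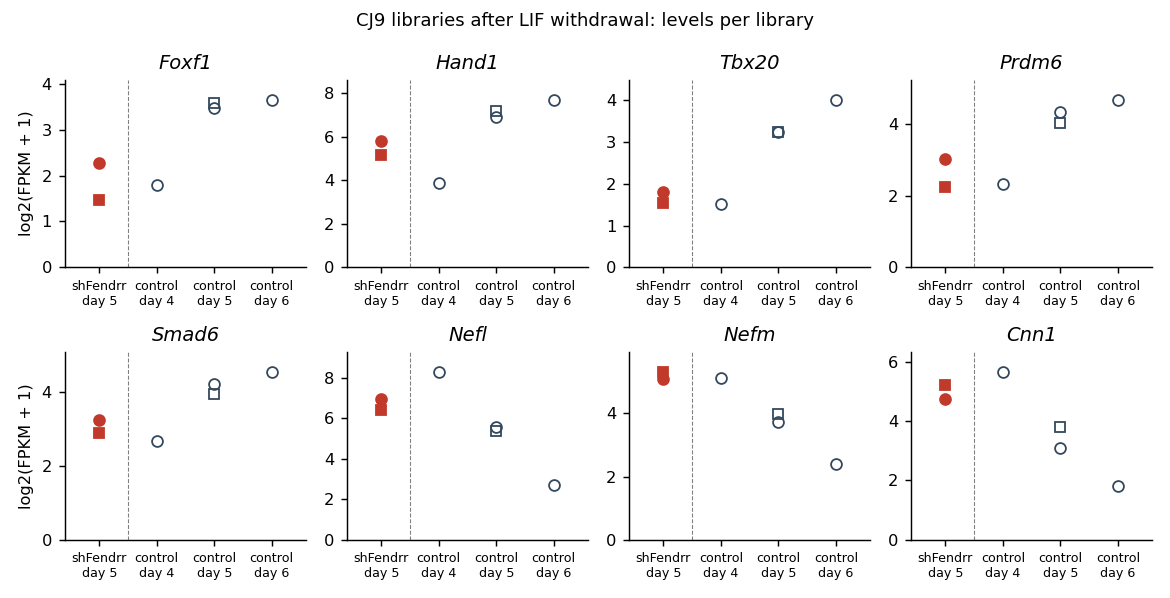
Level of 8 genes, as log2(FPKM + 1), in shFendrr at day 5 (filled red, left of the dashed line) and in CJ9 controls at day 4, 5 and 6 (open symbols), 1 symbol per library; circles are library 1 and squares library 2. The day-5 shFendrr levels of Foxf1, Hand1, Tbx20, Prdm6 and Smad6 lie below both day-5 controls, and those of Nefl, Nefm and Cnn1 above them.

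The shFendrr effect was also set against the effects of the other CJ9 knockdowns, shEVX1 at day 4 (2 libraries and 1 control), which targets the coding gene Evx1, and shLhx1os at day 6 (1 library and 1 control). No entry passed the test of the difference of effects. Against shEVX1, 0 of 14942 were called by limma (0.0%), with 763 at an unadjusted p under 0.05 (5.11%) and a smallest adjusted p of 0.302. Against shLhx1os, 0 were called (0.0%), with 1444 at an unadjusted p under 0.05 (9.66%) and a smallest adjusted p of 0.067. The shLhx1os effect rests on 1 library against 1 control, and its count was 333 without shFendrr 2 and 436 with no filter on low values, while the count against shEVX1 was 6 without shFendrr 1 and 139 with no filter. These tests do not settle whether the called genes are particular to shFendrr. Of the 14 entries that fell in shFendrr, 13 were also lower in shLhx1os than in its control, against 55.4% of all entries, and 11 were lower in shEVX1, against 38.3%. Hand1 was at 10.5 FPKM in shLhx1os, against 204 FPKM in its control, and at 9.99 and 9.13 FPKM in shEVX1, against 13.7 FPKM in its control. Nefl was at 63.7 FPKM in shLhx1os, against 5.60 FPKM in its control, and at 263 and 293 FPKM in shEVX1, against 308 FPKM in its control. Fendrr itself was at 0.0573 FPKM in shLhx1os, against 0.641 FPKM in its control, and at 0.0810 and 0.136 FPKM in shEVX1, against 0.179 FPKM in its control. Scarna13 was the entry with opposite directions in shFendrr and shLhx1os among the 14, at 6.25 FPKM in shLhx1os against 2.99 FPKM in its control.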

How the data were processed

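Per the labels' protocols, polyadenylated RNA was sequenced from stranded libraries. The values are FPKM, as deposited by the authors in 1 table of 38424 entries. The submitters' processing notes name CASAVA, TopHat2 2.0.11 and the builds mm10 and mm9. Quantifier, annotation and use of strand were not given in the sources used here. Positions are the table's, taken as mm9, with starts 1-based. Read counts were not used here, so no intervals were computed; library totals of the 4 libraries lay between 579373 and 608165 FPKM. On log2(FPKM + 1), limma 3.58.1 (R 4.3.3) fitted 12 group means over the 19 libraries (7 residual degrees of freedom, variance prior with a trend). Tests were two-sided and adjusted by Benjamini-Hochberg over all entries, with a threshold of 0.05. The shared spread assumes that the groups vary alike. An exact permutation test of 2 against 2 cannot go below 0.333 and was not used. On simulated data for this comparison (14942 entries, 200 changed), 79.1% of 2-fold and 98.7% of 4-fold changes were recovered and 6.06% of calls were false. Changed entries were drawn above a floor on mean level, and the noise of an entry had the same spread in all groups. These rates therefore do not cover low entries or the wider gap between the shFendrr libraries. The 33 gene lists, the genes named and the members were chosen with earlier results of these data known. Named genes are Fendrr, Foxf1, called entries, the 10 largest uncalled rises and falls with separate groups that reach 10 FPKM, and up to 4 members per list with the largest change that reach 5 FPKM; other list members were named after their values were seen. Alternatives were the pseudocount, filters, scaling, prior, libraries fitted, the replicate block and leaving out each library. One gene of the lists is not reported here by name.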

Additional observations from a re-analysis of the deposited data

How the results depend on the processing

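The number of called entries in shFendrr against shCtrl, 22 as reported, was 20 with libraries rescaled to the same total, 22 with scaling by median ratio and 23 without a trend in the variance prior. It was 1 (Scarna13) with a pseudocount of 0.1, 87 with no filter (14 shared with the 22), 6 with a floor of 5 FPKM, 0 in the fit of the 12 LIF-withdrawal libraries and 0 in the fit of the 4 day-5 libraries, and it ranged between 2 and 231 with 1 library left out. With the replicate block, which takes libraries of the same number as pairs, it was 37 (21 shared). The block called, among others, Capn5, Cfc1, Cytb, Tbx2 and Usp18 (adjusted p = 0.00922, 0.0131, 0.0137, 0.04999 and 0.04999 by limma) and lost XLOC_001935 (0.0576). The labels do not say that the numbers pair the libraries. With 2 pairs the correlation of same-numbered deviations was 0.35 over 14942 entries. It was 0.417 over the 6266 entries with a mean of at least 10 FPKM. The difference of the shFendrr and shEVX1 effects, 0 as reported, gave 1 call with a pseudocount of 0.1, 139 with no filter and 0 to 6 with 1 library left out. The difference from the shLhx1os effect, 0 as reported, gave 1 with a pseudocount of 0.1, 436 with no filter, 3 with scaling by median ratio, 2 without a trend, 22 with the replicate block and 0 to 333 with 1 library left out. The cause of these differences was not tested.

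No called gene changed sign under any alternative run. The groups of every called entry did not overlap, so leaving out a library could not change its sign. With 1 library left out, the log2 change of 15 of the uncalled genes named in the text crossed 0. Uncalled entries not named were not counted. It ranged between -0.58 and 1.98 for Acta2, -0.12 and 0.27 for Elavl3, -0.20 and 0.74 for Gap43, -0.15 and 0.80 for Gse1, -0.17 and 0.19 for Id1, -0.27 and 0.20 for Mthfsd, -0.14 and 1.07 for Nkx2-5, -0.14 and 0.15 for Pax6, and -0.30 and 0.12 for Snhg10. It ranged between -0.017 and 0.11 for Sox1, -0.47 and 0.050 for Sox2, -0.44 and 0.35 for Stmn2, -0.70 and 2.59 for Stmn4, -0.45 and 0.69 for T, and -0.66 and 0.072 for Tbx3. Mthfsd was also at 0.0083 with libraries rescaled to the same total. Scaling moved the median of all entries by at most 0.03 on the log2 scale. Depth is known only in relative terms, so low entries carry the least certain values.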
